A study of Mus musculus with 30 samples.

Results

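The interferon-induced genes Ifit1, Ifit2, Ifit3 and Isg15 and 4 of their regulators, Irf7, Irf1, Stat2 and Usp18, were followed in mouse left ventricle. The members were chosen by their measured HCM and diet differences in earlier results of these arrays, in which several stood high in HCM hearts on casein, and every probe set annotated to exactly 1 of these symbols was taken. This gave 8 probe sets for 7 of the 8 listed genes, among 10833 probe sets for 8251 genes in all, with 2 probe sets for Irf7 and none for Stat2. The 30 Affymetrix MG_U74Av2 arrays formed 8 groups of C57BL/6 mice. HCM females and males on casein had 4 arrays each, and wild-type females and males on casein also had 4 each. HCM females and males on soy had 3 arrays each, and wild-type females and males on soy had 4 each. All mice were 2 months old, fed a casein-based or a standard soy-based diet without restriction, and every array carried RNA pooled from 2 animals. The labels give no mutation for HCM, by which cardiac genetics usually means hypertrophic cardiomyopathy, so no driver of the genotype can be named. No source says how litters or cages were spread over the pools, and p-values measure the spread between pools.

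Type I interferons bind the receptor Ifnar1 and Ifnar2, whose kinases Jak1 and Tyk2 phosphorylate Stat2 and so activate a complex, with Irf9 as its DNA-binding part, that binds the interferon-stimulated response element (ISRE) in promoters such as those of the Ifit genes, Isg15, Irf7 and Usp18. Interferon gamma acts on another element, the gamma-activated sequence (GAS), of which the Irf1 promoter is a classic case. In heart, this response is best known from viral myocarditis and, in mice, from macrophages after myocardial infarction.

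Promoter sequences of 4 members are shown so that the elements named above can be seen as letters. RefSeq promoter windows on GRCm38.p6 were matched for 7 of the 8 genes, and the 250 bases before each start were searched on both strands for the ISRE core GAAANNGAAA, or TTTCNNTTTC on the other strand, and for GAS as TTCNNNGAA, which reads alike on both strands. Of 32851 promoter windows, 2.98% held an ISRE core and 7.02% held GAS, and 0.18% held the ISRE core in 2 or more places. The 180 bases before the start of Ifit1 (plus strand, chr19:34640709-34640888), Ifit3 (plus strand, chr19:34583349-34583528), Isg15 (minus strand, chr4:156200819-156200998) and Irf1 (plus strand, chr11:53769834-53770013) are printed 5′ to 3′, with ISRE cores in capitals for the Ifit genes and Isg15 and GAS in capitals for Irf1. The Ifit3 window lies inside the annotated gene span, which begins at an earlier start.
Ifit1: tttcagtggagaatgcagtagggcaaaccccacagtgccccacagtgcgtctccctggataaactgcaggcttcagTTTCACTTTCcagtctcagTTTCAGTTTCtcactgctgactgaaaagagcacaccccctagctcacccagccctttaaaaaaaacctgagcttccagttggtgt
Ifit3: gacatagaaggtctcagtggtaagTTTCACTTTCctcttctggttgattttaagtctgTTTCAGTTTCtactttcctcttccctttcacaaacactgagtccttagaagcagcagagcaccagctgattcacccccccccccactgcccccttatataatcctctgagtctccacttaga
Isg15: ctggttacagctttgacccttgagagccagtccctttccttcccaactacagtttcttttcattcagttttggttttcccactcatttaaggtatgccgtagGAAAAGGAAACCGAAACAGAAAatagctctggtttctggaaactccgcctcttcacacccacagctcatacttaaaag
Irf1: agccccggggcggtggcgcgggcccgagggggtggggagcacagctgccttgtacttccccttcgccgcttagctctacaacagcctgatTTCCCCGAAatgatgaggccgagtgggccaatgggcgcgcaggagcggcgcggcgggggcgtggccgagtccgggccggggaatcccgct

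Ifit1 and Ifit3 each held 2 ISRE cores, on the minus strand, which begin 104 and 85 bases before the Ifit1 start and 156 and 122 bases before the Ifit3 start. Isg15 held 3, each overlapping the next, from 78 to 57 bases before its start. The Stat2 window held 1 ISRE core, at 222 to 213 bases. Irf1 held GAS at 90 to 82 bases before its upstream start and no ISRE core. Ifit2 held GAS at 241 to 233 bases before its upstream start and no ISRE core before either of its starts. Irf7 held neither motif in this window. A match is a run of letters and not a measured site.

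Median log2 expression lay between 6.11 and 6.22 on all arrays. The bacterial poly-A control Dap averaged 8.69 ± 0.27 on the casein HCM arrays (SD, n = 8) and 4.42 ± 0.20 on the other 22 arrays. Those 8 arrays are also the ones with high member values, so array set and group cannot be told apart for them. The casein wild-type arrays differed among themselves in the control bioD, which was at 11.31 to 12.24 on replicates 1 and 2 and at 10.34 to 10.60 on replicates 3 and 4. Ventricular cardiomyocyte genes, myosins and troponins among them, were bright throughout: 9 probe sets had a mean log2 level of 11.76 to 12.59 per array. Their level was not the same in all groups. It averaged 12.08 in soy wild type, 12.38 in soy HCM, 12.48 in casein wild type and 12.53 in casein HCM.

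Ifit3 showed the widest spread between groups. It lies on chromosome 19 (GRCm38.p6, 34583119 to 34588982) beside Ifit2 (34550550 to 34576534) and Ifit1 (34640889 to 34650009), and in human cells its protein binds and stabilises IFIT1. The probe set cannot be assumed to separate Ifit3 from its near-identical mouse copy Ifit3b. On casein, log2 Ifit3 was 8.15, 8.06, 8.38 and 8.48 in HCM females and 8.29, 8.30, 8.35 and 8.80 in HCM males, against 6.47, 6.21, 6.41 and 6.32 in wild-type females and 6.25, 6.27, 6.48 and 6.37 in wild-type males. On soy, it was 6.36, 6.54 and 6.45 in HCM females and 6.39, 6.203 and 6.33 in HCM males, against 6.12, 6.37, 6.07 and 5.93 in wild-type females and 6.08, 5.86, 5.93 and 5.86 in wild-type males. All 8 casein HCM arrays lay above every other array, and the soy HCM arrays overlapped the soy wild-type arrays only at the level of a single wild-type female pool.

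**Figure D1:**
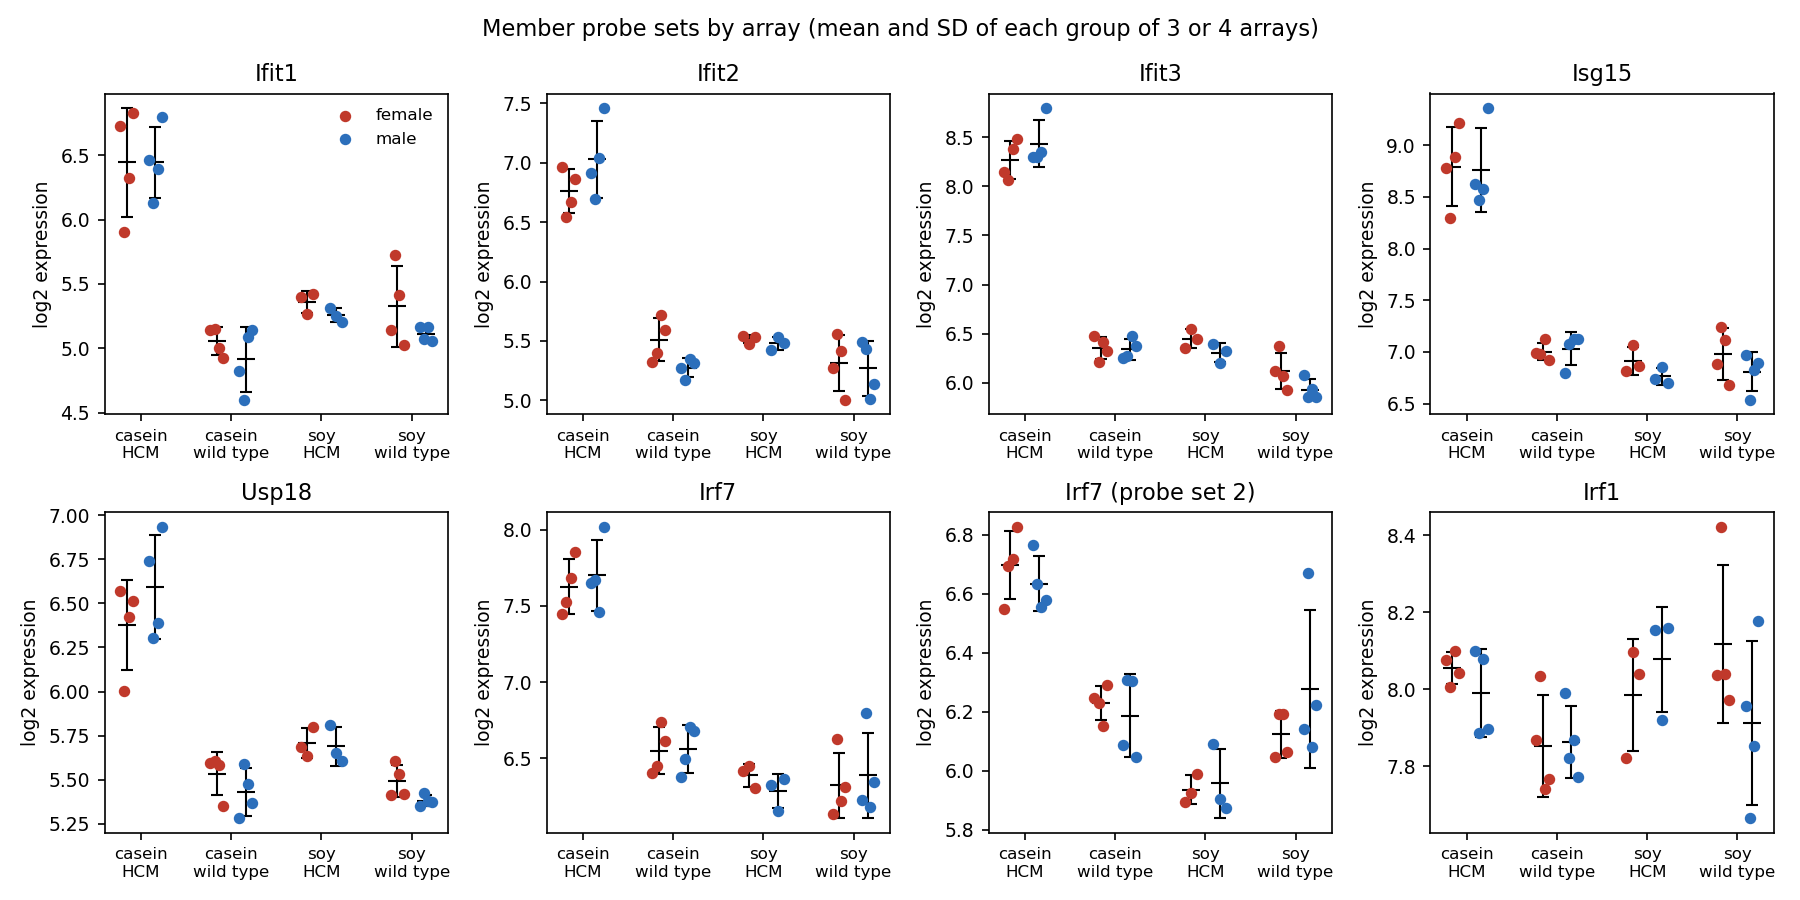
Log2 expression of the 8 member probe sets on each array (vertical axes, a separate scale per panel), by diet and genotype (horizontal axes), with females in red left of males in blue; bars are the mean and SD of each group of 3 or 4 arrays. In 6 panels all casein HCM arrays lie above all others; in Irf7 probe set 2 a single soy wild-type array reaches them, and in Irf1 HCM and wild-type arrays overlap on both diets.

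The fitted HCM difference in Ifit3 on casein was 2.00 ± 0.08 on the log2 scale (SE), or 4.01-fold with a 95% interval of 3.60 to 4.46. On soy it was 0.35 ± 0.08, or 1.28-fold (1.14 to 1.43). These HCM differences are the kind of value by which the members were picked, so they are given as descriptions and support nothing.

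Ifit1, which binds viral RNA that lacks the cell's own cap methylation, was the dimmest member, its mean level being at the 36.4th percentile of all probe sets. On casein it read 6.72, 5.90, 6.32 and 6.83 in HCM females and 6.46, 6.13, 6.39 and 6.80 in HCM males, against 5.14, 5.15, 4.998 and 4.93 in wild-type females and 4.82, 4.60, 5.09 and 5.14 in wild-type males. On soy it read 5.40, 5.26 and 5.42 in HCM females and 5.31, 5.25 and 5.21 in HCM males, against 5.14, 5.72, 5.42 and 5.02 in wild-type females and 5.16, 5.07, 5.16 and 5.05 in wild-type males. The casein genotypes did not overlap. The soy genotypes overlapped with both sexes together and in females, but not in males. The HCM difference was 1.46 ± 0.11 on casein and 0.09 ± 0.12 on soy.

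Ifit2, which in mice limits virus growth in the nervous system, had the same order of groups at the top. Its 8 casein HCM arrays ran from 6.54 over a median of 6.89 to 7.46, against 5.17, 5.33 and 5.72 on the casein wild-type arrays. The 6 soy HCM arrays ran from 5.42 over 5.51 to 5.54, against 5.01, 5.34 and 5.56 on the soy wild-type arrays. The soy HCM arrays sat within a narrow band near the top of the wild-type range. The HCM difference was 1.50 ± 0.09 on casein and 0.21 ± 0.10 on soy, where the 95% interval was -0.0007 to 0.41.

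Isg15 (chromosome 4, 156199424 to 156200818) encodes a ubiquitin-like protein that is attached to other proteins. On casein it read 8.78, 8.29, 8.88 and 9.22 in HCM females and 8.62, 8.47, 8.58 and 9.36 in HCM males, against 6.99, 6.98, 7.12 and 6.92 in wild-type females and 6.80, 7.08, 7.12 and 7.13 in wild-type males. On soy it read 6.81, 7.07 and 6.86 in HCM females and 6.74, 6.85 and 6.70 in HCM males, against 6.88, 7.24, 7.12 and 6.68 in wild-type females and 6.97, 6.54, 6.83 and 6.90 in wild-type males. The lowest casein HCM array was above the highest of the other 22, while the soy genotypes shared their range. The HCM difference was 1.76 ± 0.11 on casein (3.38-fold, 2.87 to 3.98) and -0.06 ± 0.12 on soy.

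Usp18 (chromosome 6, 121245906 to 121270917) removes Isg15 from its targets and also blocks signalling at Ifnar2. On casein it read 6.57, 6.00, 6.42 and 6.52 in HCM females and 6.74, 6.31, 6.39 and 6.94 in HCM males, against 5.59, 5.61, 5.58 and 5.35 in wild-type females and 5.28, 5.59, 5.48 and 5.37 in wild-type males. On soy it read 5.69, 5.63 and 5.80 in HCM females and 5.81, 5.65 and 5.60 in HCM males, against 5.41, 5.61, 5.53 and 5.42 in wild-type females and 5.35, 5.42, 5.38 and 5.37 in wild-type males. On soy the HCM arrays were mostly above the wild-type arrays. With both sexes together the ranges met at 5.60 in an HCM male and 5.61 in a wild-type female. Within each sex the soy genotypes did not overlap. The HCM difference was 1.003 ± 0.081 on casein and 0.26 ± 0.09 on soy.

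Irf7 (chromosome 7, 141263183 to 141266499), the transcription factor that drives interferon alpha genes and is itself induced by interferon, had 2 probe sets. The brighter set read on casein 7.45, 7.52, 7.68 and 7.85 in HCM females and 7.65, 7.67, 7.46 and 8.02 in HCM males, against 6.40, 6.45, 6.74 and 6.62 in wild-type females and 6.37, 6.50, 6.71 and 6.68 in wild-type males. On soy it read 6.42, 6.45 and 6.30 in HCM females and 6.33, 6.16 and 6.37 in HCM males, against 6.14, 6.62, 6.22 and 6.31 in wild-type females and 6.23, 6.79, 6.18 and 6.34 in wild-type males. Its casein HCM arrays stood clear of all others, with an HCM difference of 1.11 ± 0.09 on casein and -0.02 ± 0.10 on soy.

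The other Irf7 probe set carries the suffix f, which Affymetrix gives to sets shared by a family of similar sequences. It had a smaller difference on casein, 0.46 ± 0.07, and a negative one on soy, -0.25 ± 0.07. Its casein HCM arrays ran from 6.55 over 6.66 to 6.83, against 6.05, 6.24 and 6.31 on casein wild-type arrays. Its soy HCM arrays ran from 5.88 over 5.92 to 6.09, against 6.05, 6.17 and 6.67 on soy wild-type arrays. The soy wild-type maximum was replicate 2 of the males, and without that array the soy difference was -0.19. The 2 Irf7 probe sets thus disagreed in size on casein and in level on soy.

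Irf1 (chromosome 11, 53770014 to 53778374), a factor induced chiefly by interferon gamma, differed little between groups. On casein it read 8.08, 8.01, 8.10 and 8.04 in HCM females and 8.10, 7.89, 8.08 and 7.90 in HCM males, against 7.87, 8.03, 7.74 and 7.77 in wild-type females and 7.99, 7.82, 7.87 and 7.77 in wild-type males. On soy it read 7.82, 8.10 and 8.04 in HCM females and 8.15, 7.92 and 8.16 in HCM males, against 8.04, 8.42, 8.04 and 7.97 in wild-type females and 7.96, 7.66, 7.85 and 8.18 in wild-type males. The genotypes overlapped on both diets. The HCM difference was 0.17 ± 0.07 on casein and 0.02 ± 0.08 on soy. Stat2 (chromosome 10, 128270498 to 128292853), a part of the ISRE-binding complex, has no value here.

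Across the 8 probe sets the median HCM difference was 1.28 on casein, beside -0.0035 over all 12422 probe sets, and 0.053 on soy, beside -0.013. For scale against the whole table, by limma with Benjamini-Hochberg adjustment over all probe sets, 7 of 8 were past the threshold of 0.05 as higher on casein, where 25.0% of all probe sets were. On soy, 2 (Ifit3 and Usp18) were past it as higher and 1 (Irf7 probe set 2) as lower, where 12.3% of all probe sets were in each direction. Since these comparisons chose the members, nothing is read from the counts. With array set entered as a random block, none of those 3 soy values stayed past the threshold. Usp18 was also no longer past it without replicate 1 of the soy HCM males (0.23), replicate 3 of the soy HCM females (0.24), or replicate 1 or 4 of the soy wild-type females (0.25 each). Overlap of arrays was counted with both sexes together and not within each sex. Every casein HCM array was above every casein wild-type array for 7 of 8 probe sets, as for 8.02% of all probe sets. On soy this held for 0 of 8, as for 4.35%. The casein HCM arrays were above all other 22 arrays for 6 of 8, as for 4.93%. Against replicates 1 and 2 of the casein wild type alone, the Ifit3 difference was 2.05 and against replicates 3 and 4 it was 1.96. The same pair of values was 1.23 and 0.98 for the brighter Irf7 probe set.

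**Figure D2:**
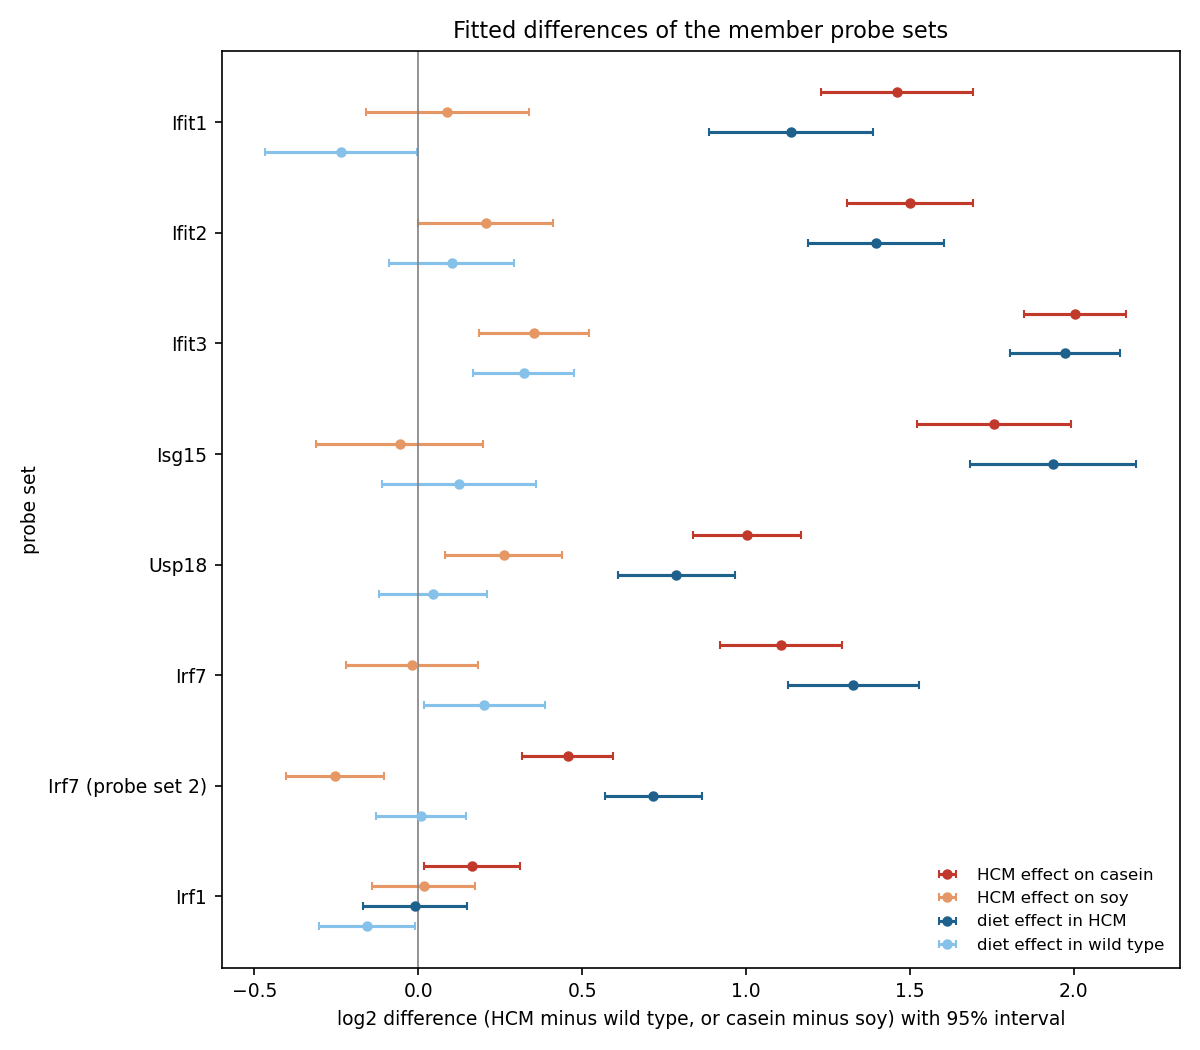
Fitted log2 differences of the 8 member probe sets (rows) with 95% intervals: HCM minus wild type on casein (red) and on soy (orange), and casein minus soy in HCM (dark blue) and in wild type (light blue). For Ifit3 the values are 2.00, 0.35, 1.97 and 0.32; Irf1 lies between -0.16 and 0.17.

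The same arrays set by diet gave the members' levels in each genotype. In HCM hearts, casein minus soy was 1.97 ± 0.08 for Ifit3, 1.94 ± 0.12 for Isg15, 1.40 ± 0.10 for Ifit2, 1.33 ± 0.10 for Irf7 (0.72 ± 0.07 for its other probe set), 1.14 ± 0.12 for Ifit1 and 0.79 ± 0.09 for Usp18. Irf1 was at -0.01 ± 0.08. By limma, 7 of 8 were past the threshold as higher, where 29.8% of all probe sets were. In wild-type hearts the differences were far smaller, from -0.24 ± 0.11 for Ifit1 to 0.32 ± 0.08 for Ifit3, which alone of the 8 was past it as higher, where 20.3% were. The brighter Irf7 probe set, at 0.20 ± 0.09, was past it too with each array centred on its median (0.27), and was at 0.07 with replicates 1 and 2 of the casein wild type alone and at 0.33 with replicates 3 and 4. All 8 casein arrays were above all 6 soy arrays in HCM for 7 of 8 probe sets, as for 19.0% of all probe sets. In wild type, casein and soy arrays overlapped for all 8 probe sets, while 5.55% of all probe sets were higher without overlap. The diet comparisons share the HCM or the wild-type arrays with the HCM comparisons and add no independent view.

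The mean diet effect over both sexes and genotypes includes the casein HCM arrays by which the members were picked, so it is a description too. Of the 8 probe sets, 7 were past the threshold as higher on casein, where 29.0% of all probe sets were, and nothing is read from the count. The differences were 1.15 ± 0.06 for Ifit3, 1.03 ± 0.08 for Isg15, 0.76 ± 0.07 for Irf7 (0.36 ± 0.05 for its other probe set), 0.75 ± 0.07 for Ifit2, 0.45 ± 0.08 for Ifit1, 0.42 ± 0.06 for Usp18 and -0.08 ± 0.05 for Irf1.

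Sex was not used to choose the members and was tested. Female minus male, averaged over diet and genotype, lay between -0.02 for Irf7 probe set 2 and 0.11 for Ifit1. By limma 0 of 8 passed, where 0.233% of all probe sets did. An unadjusted p under 0.05 by limma was found for 0 of 8, where 9.07% of all probe sets had one. The 95% interval of the sex difference was -0.07 to 0.16 for Ifit3 and -0.06 to 0.28 for Ifit1.

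The HCM difference on casein was seen in both sexes. It was 1.91 ± 0.11 in females and 2.09 ± 0.11 in males for Ifit3, and 1.25 ± 0.13 in females and 1.75 ± 0.13 in males for Ifit2. For Usp18 it was 0.84 ± 0.11 in females and 1.16 ± 0.11 in males. The gap between the sexes on casein alone was not tested. The value tested was the HCM effect of females less the one of males over both diets. That mean includes soy, where Ifit2 was at 0.20 ± 0.14 in females and 0.21 ± 0.14 in males. The value tested was -0.25 ± 0.14 for Ifit2 and -0.21 ± 0.12 for Usp18 (adjusted p = 0.933 for both by limma). It ran the other way in Isg15 (0.02 ± 0.17), Irf7 (0.05 ± 0.13) and Irf7 probe set 2 (0.08 ± 0.10), and lay between -0.13 and -0.11 in Ifit1, Ifit3 and Irf1. By limma 0.0% of all probe sets passed it, and 4.05% had an unadjusted p under 0.05, with 0 of the 8 among them. For the diet effect of females less the one of males, 0.0% passed and 14.1% had an unadjusted p under 0.05, among them Ifit3 at -0.24 ± 0.11 (adjusted p = 0.327 by limma).

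Other genes of the pathway were taken from lists chosen with earlier results of these data known. Among 13 probe sets of 12 ligand genes, 0 rose and 5 fell with HCM on casein by limma. The ligand list holds the interleukin genes Il6, Il15 and Il18 beside interferon genes, so its counts are not of interferon genes alone. Of all probe sets, 25.0% rose and 24.0% fell there. An unadjusted p under 0.05 by limma was found for 7 of the 13, where 54.7% of all probe sets had one. Those named are Ifna2 at -0.39 ± 0.08, Ifna4 at -0.36 ± 0.14, Ifnab at -0.25 ± 0.10 and Ifna9 at -0.23 ± 0.08. The interferon alpha genes are near-identical copies of each other, so these probe sets may share signal, and another Ifna4 probe set was at 0.12 ± 0.06. On soy, 0 of 13 passed in either direction by limma, where 12.3% of all probe sets did in each. There 1 of the 13 had an unadjusted p under 0.05 by limma, where 37.7% of all probe sets had one.

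Of 9 probe sets of 7 receptor and kinase genes, 5 (55.6%) rose and 2 (22.2%) fell on casein, with a median of 0.20. Of all probe sets, 25.0% rose and 24.0% fell there. Tyk2, a kinase of the type I receptor, rose by 0.44 ± 0.07 on casein and was lower on soy, at -0.26 ± 0.07. Ifngr2, a chain of the interferon gamma receptor, rose by 0.32 ± 0.07 on casein. Ifnar2 disagreed between probe sets, at 0.23 ± 0.05 and -0.19 ± 0.06, and Jak2, another kinase, was at -0.36 ± 0.08 in a dim probe set and 0.05 ± 0.06 in its other one.

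Of 13 probe sets of other STAT and IRF factors and RNA or DNA sensors, 3 (23.1%) rose and 4 (30.8%) fell on casein, with a median of -0.04. These shares were near those of all probe sets, 25.0% and 24.0%. Ifih1, a cytosolic sensor of double-stranded RNA, rose by 0.55 ± 0.11, and Ikbke, a kinase upstream of Irf3 and Irf7, by 0.27 ± 0.07. Stat3, the factor of interleukin-6 signalling, fell in both probe sets, at -0.74 ± 0.06 and -0.29 ± 0.04. Irf9, the DNA-binding part of the ISRE-binding complex, was at 0.13 ± 0.08 on casein (adjusted p = 0.186 by limma) and 0.03 ± 0.09 on soy.

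Of 70 probe sets of 53 other interferon-induced effector genes, 39 (55.7%) rose and 9 (12.9%) fell with HCM on casein, with a median of 0.19. Of all probe sets, 25.0% rose and 24.0% fell there. On soy, 10 (14.3%) rose and 10 (14.3%) fell, with a median of 0.0083, near the 12.3% of all probe sets in each direction. The 4 largest on casein were Psmb8, an immunoproteasome subunit, at 0.98 ± 0.14, Iigp1, a GTPase against intracellular parasites, at 0.96 ± 0.23, Ifi204, a DNA-binding protein, at 0.95 ± 0.13, and Ifi27l2a at 0.91 ± 0.11. Other probe sets of Ifi204 were at 0.07 ± 0.05 and -0.12 ± 0.06. The HCM differences of Ifit3, Isg15, Ifit2, Ifit1, the brighter Irf7 probe set and Usp18 on casein were each above all 70 of these. Usp18, at 1.003 ± 0.081, was close to Psmb8. Irf7 probe set 2, at 0.46, and Irf1, at 0.17, were not above all 70. The members were chosen with such values known, so nothing is read from this order. Rsad2, the antiviral enzyme viperin, rose by 0.46 ± 0.10 on soy and was at -0.09 ± 0.09 on casein. Tap2, a peptide transporter for antigen presentation, rose by 0.41 ± 0.10 on casein and fell on soy, at -0.48 ± 0.11. Ube2l6 and Uba7, the enzymes that attach Isg15, were singled out after their values were seen: on casein Ube2l6 was at 0.32 ± 0.05 and Uba7 at -0.05 ± 0.08.

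Of 17 probe sets of 12 inhibitor genes, 3 (17.6%) rose and 7 (41.2%) fell on casein, where 25.0% of all probe sets rose and 24.0% fell. On soy, 4 (23.5%) rose and 1 (5.88%) fell, where 12.3% of all probe sets did in each direction. Nfkbia, the inhibitor of NF-kB, rose by 1.15 ± 0.17 on casein and fell on soy, at -0.81 ± 0.18, while its other probe set was at 0.15 ± 0.14 on casein. Socs1, a feedback inhibitor of Jak kinases that is induced by interferon, rose by 0.38 ± 0.09 on casein. Pias3, an inhibitor of Stat3, fell, at -0.65 ± 0.06, though its 3 probe sets differed, the others being at -0.26 ± 0.07 and 0.08 ± 0.06. Ptpn1, a phosphatase of Jak2 and Tyk2, fell, at -0.44 ± 0.07.

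**Figure D3:**
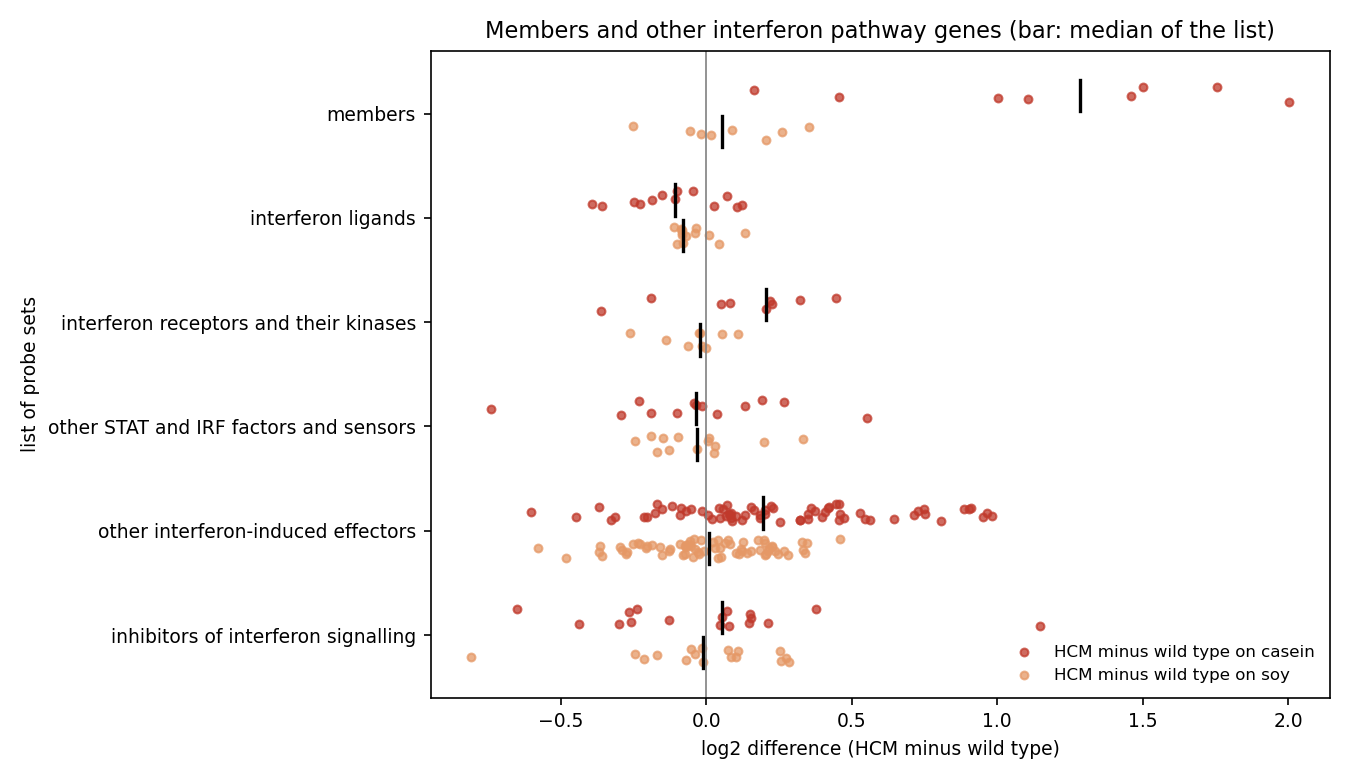
HCM minus wild type (log2, horizontal axis) on casein (red) and on soy (orange) for the member probe sets and 5 lists of other interferon pathway genes (rows); each point is a probe set and each bar the median of its list. Medians on casein are 1.28 for the members, 0.19 for the other effectors and between -0.11 and 0.20 for the remaining lists.

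Markers of cell types were read in the same comparisons. In bulk tissue, fewer cells of a type and less RNA per cell cannot be told apart. Of 28 macrophage and monocyte probe sets, 11 rose and 5 fell with HCM on casein, and 0 rose and 3 fell on soy by limma. Of all probe sets, 12.3% rose and 12.3% fell on soy. An unadjusted p under 0.05 by limma on soy was found for 7 of the 28, where 37.7% of all probe sets had one. Ctss rose by 0.95 ± 0.16, Lyz2 by 0.73 ± 0.17 (-0.01 ± 0.09 in its other probe set) and Tyrobp by 0.69 ± 0.07 on casein. The 5 that fell, named after their values were seen, were a C1qb probe set at -0.54 ± 0.10 (0.58 ± 0.16 in its other one), a Csf1r probe set at -0.30 ± 0.08 (0.56 ± 0.11 in another), Cx3cr1 at -0.29 ± 0.09, Itgam at -0.20 ± 0.05 and a Fcgr3 probe set at -0.14 ± 0.05. The median of the 28 was 0.07. The mean level of this list was 6.13 to 6.32 on casein HCM arrays, against 6.04 to 6.17 on casein wild-type arrays, and 6.06 to 6.16 on soy HCM arrays, against 6.09 to 6.52 on soy wild-type arrays. On casein, where 25.0% of all probe sets rose and 24.0% fell, 5 of 21 lymphocyte probe sets rose (23.8%) and 4 fell (19.0%), and of 13 neutrophil probe sets 3 rose (23.1%) and 4 fell (30.8%). Of 17 endothelial probe sets 4 rose and 4 fell, and of 15 fibroblast probe sets 6 rose and 4 fell. Of 7 dendritic cell probe sets 0 rose and 0 fell by limma. Among those 7, 1 had an unadjusted p under 0.05 by limma, where 54.7% of all probe sets had one. Of 6 atrial probe sets, 4 rose on casein and 3 fell on soy. Myl7, the atrial myosin light chain, was at 1.58 ± 0.34 on casein and -1.32 ± 0.37 on soy. Of 9 ventricular cardiomyocyte probe sets, 4 (44.4%) rose and 2 (22.2%) fell on casein, with a median of 0.12. On soy, 8 (88.9%) of these rose and 0 fell, with a median of 0.27, where 12.3% of all probe sets did in each direction. The part of these cell types in the members' values was not tested, and the files hold no detection calls by which a marker could be called absent.

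Deviations from the group means do not enter the HCM differences. The deviations of Ifit3 from its 8 group means went with those of Isg15 (r = 0.82 over 30 arrays), Ifit1 (0.64), Ifit2 (0.58), the brighter Irf7 probe set (0.53) and Usp18 (0.52), but hardly with Irf1 (0.18) or the other Irf7 probe set (0.05). These are descriptions, and all members on an array share its RNA and its normalization. Replicate 4 of the casein HCM males was the highest of its group in 6 of 8 probe sets, where 23.4% of all probe sets were highest on that array. Replicate 4 of the casein HCM females was highest in 5 of 8, where 31.8% were. Replicate 2 of these females was lowest in 6 of 8. The share of all probe sets lowest on that array was not computed, so nothing is read from this count. On soy, replicate 2 of the wild-type females was highest in all 8, where 21.0% were, by a median of 0.34 over the other 3 arrays. On that array 44 of the 70 other effectors and 20 of the 28 macrophage probe sets were also highest in their group, the macrophage list by a median of 0.27. Without that array, the HCM difference on soy was 0.39 for Ifit3, 0.25 for Ifit2, 0.16 for Ifit1 (0.09 with it) and 0.07 for Irf1 (0.02 with it).

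**Figure D4:**
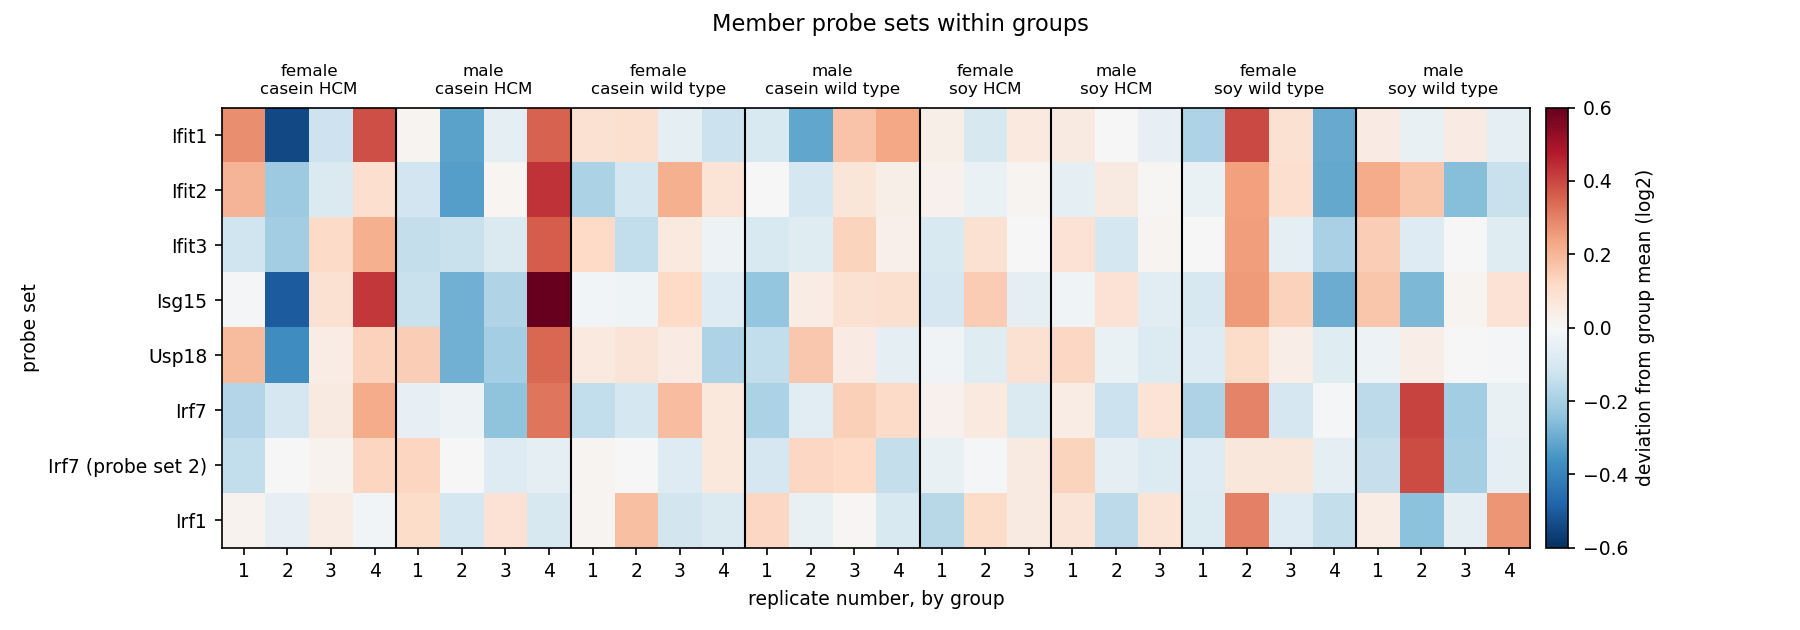
Deviation of each member probe set (rows) from the mean of its group (log2, colour scale from -0.6 in blue to 0.6 in red) on the 30 arrays, by group and replicate number (columns). Replicate 4 of the casein HCM males and replicate 2 of the soy wild-type females stand out as the highest of their group in 6 and in 8 of the 8 rows.

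Over all 30 arrays, the probe sets with 1 other symbol that tracked Ifit3 most closely by Pearson correlation were Isg15 (0.975), Ifit2 (0.972), Irf7 (0.955), Eif4b, a translation initiation factor (0.951), and Pdcl3, a chaperone partner (0.950). Usp18 ranked 11 and Ifit1 ranked 45 of 10832, and Irf1, at 0.168, ranked 4225. This measure mostly orders genes by how far the 8 casein HCM arrays stand apart from the other 22. By deviations from the group means the order was Isg15, Ifi27 (0.756), Lgals3bp (0.703), Irgm1 (0.681) and Ssna1 (0.670). Ifi27, Lgals3bp and Irgm1 are on the list of other interferon-induced effectors, and Eif4b and Pdcl3 are not among the 5 closest by this measure.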

How the data were processed

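Total RNA of left ventricles was extracted with TRI reagent, copied to biotin-labelled RNA and hybridised to the arrays, per the labels' protocols. The deposited log2 values were made by the authors with RMA, and Affymetrix Expression Console is also named, per the submitters' processing notes, which give no version or settings. RMA fits arrays run together, and whether all 30 were run together is not given in the sources used here. It compresses differences of dim probe sets. The number of arrays limits the precision. Of 12488 probe sets, 66 controls were left out. Gene symbols came from the platform annotation, which gave 1 symbol for 10833 of the other 12422, several for 396 and none for 1193. The deposited values were not normalized again. A model with 8 group terms was fitted over all 12422 probe sets with limma 3.58.1 in R 4.3.3, with 22 residual degrees of freedom, and p-values were adjusted by Benjamini-Hochberg over all probe sets, with a threshold of 0.05. Intervals are at 95%. The code was tested on simulated data with 200 changed probe sets. Descriptions used Python 3.11.15 with pandas 2.3.3.

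The members and gene lists were chosen with earlier results of these data known. The genes named were every member, up to 4 genes per pathway list with the largest HCM difference on casein and up to 2 on soy among those past the threshold, Irf9, and the 5 probe sets most like Ifit3 by each measure; the markers, the second probe sets of named genes and the exceptions stated come in addition. A further gene of the rule is not reported here. Replicate numbers are in the labels but nothing says that they mark shared litters or days, so no pairing was assumed. The alternatives tried were the array set as a random block, 1 probe set a gene, a filter on dim probe sets, 2 other normalizations, array weights, an intensity trend, subsets of arrays, the replicate number as a block, and leaving out each array.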

Additional observations from a re-analysis of the deposited data

Results flagged for a closer look

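Each probe set was tested in each group of 4 arrays for a value far from the other 3, and 4 of these 48 tests stood out. Chance gives about 1 in 20 where tests are independent. These share arrays, so nothing is read from the count. Ifit3 was at 8.8 in replicate 4 of the casein HCM males, above the other 3. Irf1 was at 8.42 in replicate 2 of the soy wild-type females, the array on which all 8 member probe sets were highest of their group. Isg15 was at 6.8 in replicate 1 of the casein wild-type males and Usp18 at 5.35 in replicate 4 of the casein wild-type females, both below the other 3.

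Casein minus soy in Ifit1 was 1.14 in HCM hearts and -0.24 in wild-type hearts, with every casein HCM array above the soy HCM mean and every casein wild-type array below the soy wild-type mean. The difference was not tested. The HCM difference in Irf7 probe set 2 was 0.46 on casein and -0.25 on soy, with every HCM array on the same side of its wild-type mean within each diet, and this was not tested either. The poly-A control Dap, outside the gene measurements, averaged 4.28 more in the 8 casein HCM arrays than in the other 22.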

How the results depend on the processing

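No member value reversed its sign under an alternative in which it was past the threshold. The median of the members was 1.11 to 1.46 for HCM on casein, against 1.28 as reported, 0.017 to 0.089 on soy, against 0.053, and 0.59 to 0.75 for the mean diet effect, against 0.60. The ends on casein and soy, and 0.75 for diet, came from settings in which Ifit1 or Irf7 probe set 2 has no value. There the fitted differences of the other members were unchanged, and only the middle of the list moved. Leaving out 1 array gave 1.23 to 1.33 on casein, 0.016 to 0.11 on soy and 0.57 to 0.63 for diet, with 7 members past the threshold for diet each time. Of 638 values of single probe sets under the alternatives other than leaving out 1 array, 3 lost an adjusted p under 0.05 by limma and 13 gained one. Those lost were HCM on soy of Ifit3, Usp18 and Irf7 probe set 2, with the array set as a block. Those gained included 4 for Irf7 and 3 for Irf1 in diet in wild type, and 2 for Irf1 in HCM on casein. Irf1 in mean diet gained one with quantile normalization added (-0.13). A further 12 changed sign, with absolute values up to 0.0428, and 0 of these were past the threshold. The cause was not tested. Ifit1 has no value where the dimmest 40% were left out, nor Irf7 probe set 2 with 1 probe set a gene. Counts over all probe sets moved more. With the array set as a block they were 3395 against 6088 for HCM on casein, 343 against 3064 on soy, 1194 against 4076 for mean HCM, 3122 against 5708 for diet in wild type and 1 against 0 for sex by diet. With array weights they were 5210 on soy, 93 against 29 for sex and 137 for sex by diet, and with the dimmest 40% left out 5054 against 7733 for mean diet and 4936 against 7590 for diet in HCM. With 1 array left out, up to 3 passed for sex by HCM and up to 16 for sex by diet. Same-numbered arrays did not deviate together (median r = -0.012 over 99 pairs, 9 of 30 arrays closest to their own number), and with the replicate block the members' median was 0.59 for diet, with 7 past the threshold, and 1.28 for HCM on casein. No paired reading was made.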
